A study of Homo sapiens with 12 samples.

Results

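The ID family of helix-loop-helix inhibitors has 4 members, ID1, ID2, ID3 and ID4, and its transcripts were followed in MDA-MB-231 cells through 4 treatments. The members were taken by name, each from a probe set annotated with exactly 1 gene symbol. Each of the 4 genes had a single such probe set, among 22392 genes measured in this way and 53617 probe sets in all. The family was chosen by measured values, the size of the rise of ID1 and ID3 with JQ1 and the nearly equal signal of ID1 with either compound. The signals of the ID genes are therefore given as a description without tests, while other genes of the pathway were tested. The lists of those other genes were also chosen with earlier results of these data known.

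MDA-MB-231 is an established line of triple-negative breast cancer cells, which lack estrogen and progesterone receptors and HER2 amplification. Cultures were exposed for 48 h to the combination of 1 μM JQ1 and 3.17 μM mocetinostat, to 1 μM JQ1 alone, to 3.17 μM mocetinostat alone or to the vehicle DMSO, with 3 arrays for each of the 4 treatments. JQ1 displaces BET proteins, readers of acetylated histones, from chromatin, and mocetinostat inhibits class I histone deacetylases. The study describes the replicates as independent and gives the mocetinostat dose as 3 μM. It also names another culture medium than the sample labels do. RNA of the whole culture was hybridized to Affymetrix Human Gene 2.1 ST arrays, so more transcript per cell and more cells that carry it cannot be told apart, and a single line and a single time point were studied. The signals are log2 values summarized by RMA, in which a difference of 1 is a 2-fold change.

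ID proteins carry a helix-loop-helix domain but no basic region, so they bind other helix-loop-helix proteins without binding DNA. Their main partners are the E proteins, encoded by TCF3, TCF4 and TCF12, which otherwise pair with tissue-specific basic helix-loop-helix factors at E-boxes, and by holding E proteins back the ID proteins delay differentiation. Bone morphogenetic proteins (BMPs) are classic inducers of the ID genes, through receptor-activated SMAD1 and SMAD5 acting together with SMAD4. In breast cancer cells ID1 and ID3 have been studied in connection with invasion and tumor initiation.

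The sequence just before the start of each gene is shown because both compounds act on promoter chromatin and the 4 genes differed in their response. The windows hold 250 bases from the RefSeq promoter table (build GRCh38.p14), written 5′ to 3′ on the strand of the gene. They lie at chr20:31605039-31605288 (plus strand) for ID1, chr2:8681806-8682055 (plus strand) for ID2, chr1:23559502-23559751 (minus strand) for ID3 and chr6:19837120-19837369 (plus strand) for ID4. Capitals mark the TATA box (TATAAA), the CCAAT box (CCAAT) and the GC box (GGGCGG), each on either strand.
ID1: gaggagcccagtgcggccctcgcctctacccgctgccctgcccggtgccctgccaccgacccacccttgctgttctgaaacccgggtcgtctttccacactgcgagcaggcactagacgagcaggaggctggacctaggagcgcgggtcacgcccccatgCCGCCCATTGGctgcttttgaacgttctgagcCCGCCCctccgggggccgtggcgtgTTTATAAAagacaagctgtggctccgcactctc
ID2: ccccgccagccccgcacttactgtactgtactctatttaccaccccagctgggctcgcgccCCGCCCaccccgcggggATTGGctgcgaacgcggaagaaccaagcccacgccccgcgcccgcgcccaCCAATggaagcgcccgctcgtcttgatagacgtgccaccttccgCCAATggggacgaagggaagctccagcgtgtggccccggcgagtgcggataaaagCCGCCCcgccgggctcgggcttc
ID3: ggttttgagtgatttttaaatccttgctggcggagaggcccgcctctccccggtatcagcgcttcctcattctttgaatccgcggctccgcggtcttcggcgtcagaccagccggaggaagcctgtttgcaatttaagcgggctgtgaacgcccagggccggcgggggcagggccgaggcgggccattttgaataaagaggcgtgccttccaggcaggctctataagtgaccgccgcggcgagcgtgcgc
ID4: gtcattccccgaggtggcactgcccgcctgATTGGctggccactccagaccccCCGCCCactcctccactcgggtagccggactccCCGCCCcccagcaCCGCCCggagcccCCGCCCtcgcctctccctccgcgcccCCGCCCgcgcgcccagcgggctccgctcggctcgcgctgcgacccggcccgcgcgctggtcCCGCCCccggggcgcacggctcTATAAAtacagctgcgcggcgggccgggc
TATAAA was found in the windows of ID1, as overlapping matches that begin 33 and 31 bases before the start, and of ID4, 29 bases before it. Of 35116 RefSeq promoter windows of the same length, 10.7% hold this motif. CCAAT occurred at 1 place for ID1, 3 for ID2 and 1 for ID4, and it occurs in 32.0% of all windows. GGGCGG occurred at 2 places for ID1, 2 for ID2 and 6 for ID4, and in 42.6% of all windows, and the ID3 window held none of these 3 motifs. The E-box CANNTG, found in 61.8% of all windows, was present once for ID2 and once for ID4. The short SMAD-binding motif GTCT, on either strand, occurred 3 times for ID1, 2 times for ID2, 2 times for ID3 and 1 time for ID4, and it occurs in 77.5% of all windows. The GC-rich SMAD motif GGCGCC, present in 16.4% of them, was found for none of the 4 genes. The windows were rich in G and C, at 66.0% for ID1, 69.2% for ID2, 62.0% for ID3 and 78.8% for ID4, against a median of 58.0% over all windows. These matches are letters in the reference sequence, and no binding was measured here.

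Array medians were 3.58 to 3.66. The markers that the line should carry were mostly present with DMSO. VIM, CD44, CAV1, AXL and FN1 had mean signals at or above the 96.7th percentile of the array, while SPARC was at the 59.3rd percentile. ESR1 and PGR, the receptors that the line lacks, lay at the 39.2nd and 35.4th percentiles, but other luminal genes were brighter, with KRT19 at the 95.2nd, GATA3 at the 80.3rd and EPCAM at the 78.5th. Among genes of other cell types, the leukocyte genes PTPRC and CD3E were at the 19.3rd and 39.4th percentiles and the endothelial gene VWF at the 47.3rd, while the lysosomal and macrophage gene CD68 was at the 98.3rd and the collagen gene COL1A1 at the 67.9th. The part of other cells in the ID values was not tested. A gene passed when its change was 2-fold or more with an unadjusted p below 0.001, the filter of the study's methods, and the Benjamini-Hochberg adjusted p (limma) of the probe sets that passed was at most 0.0144 in every comparison. Of the probe sets that passed, 53% were higher with the combination than with DMSO, 37.6% with JQ1 and 59.7% with mocetinostat, and 31.8%, 25.2% and 45.9% when the arrays were scaled to 46 ribosomal protein genes. That scaling moved the median of all probe sets to −0.27 with the combination, −0.09 with JQ1 and −0.18 with mocetinostat, relative to DMSO. The combination was also compared with each compound, and 62.1% of the probe sets that passed were higher with it than with JQ1 and 40.4% than with mocetinostat, or 45.6% and 28.3% after that scaling.

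ID1 rose about 9-fold with each compound and little further with both. Its log2 signal was 12.77, 12.79 and 12.55 on the 3 combination arrays, 12.45, 12.44 and 12.47 on the JQ1 arrays, 12.41, 12.37 and 12.34 on the mocetinostat arrays and 9.20, 9.34 and 9.24 on the DMSO arrays. All 9 treated arrays lay above all DMSO arrays, and the 3 treatments stood in the order combination, JQ1, mocetinostat without overlap, although a gap of only 0.03 separated the lowest JQ1 array and the highest mocetinostat array. The means were 12.70 ± 0.13 with the combination, 12.45 ± 0.01 with JQ1, 12.37 ± 0.04 with mocetinostat and 9.26 ± 0.07 with DMSO (SD, n = 3 each). Against DMSO the log2 differences were 3.44 for the combination, 3.19 for JQ1 and 3.11 for mocetinostat (SE 0.09 each), or 10.9-fold, 9.13-fold and 8.63-fold. JQ1 exceeded mocetinostat by 0.08 (SE 0.09), which is within the error of the difference. The combination exceeded JQ1 by 0.25 and mocetinostat by 0.33 (SE 0.09 each), steps of 1.19-fold and 1.26-fold. These small steps depended on how the arrays were scaled, and became 0.10 over JQ1 and 0.21 over mocetinostat with ribosomal protein genes as the standard.

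ID3, the closest of the other members to ID1 in its pattern, rose with each compound by about as many log2 units as ID1 did, but it was higher again when both were given. Its log2 signal was 9.06, 9.30 and 9.14 with the combination, 8.03, 8.31 and 8.46 with JQ1, 8.23, 8.20 and 8.19 with mocetinostat and 4.83, 5.10 and 5.02 with DMSO. The combination arrays were above all others and the DMSO arrays below all others, while the 3 mocetinostat arrays lay inside the range of the JQ1 arrays. ID3 averaged 9.17 ± 0.12 with the combination, 8.27 ± 0.22 with JQ1, 8.20 ± 0.02 with mocetinostat and 4.98 ± 0.14 with DMSO (SD, n = 3 each). The differences from DMSO were 4.19, 3.29 and 3.22 (SE 0.12 each) for the combination, JQ1 and mocetinostat, or 18.2-fold, 9.77-fold and 9.35-fold. JQ1 and mocetinostat differed by 0.06 (SE 0.12). The combination stood 0.90 above JQ1 and 0.96 above mocetinostat (SE 0.12 each), both just under 2-fold.

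ID2 followed mocetinostat more than JQ1. The combination arrays had log2 signals of 6.42, 6.70 and 6.83, the JQ1 arrays 5.10, 4.77 and 5.49, the mocetinostat arrays 6.27, 6.02 and 5.74 and the DMSO arrays 5.02, 4.47 and 4.39. JQ1 and DMSO overlapped, whereas mocetinostat lay above both and the combination above mocetinostat, by a gap of 0.15 between the nearest arrays. Means were 6.65 ± 0.21 with the combination, 5.12 ± 0.36 with JQ1, 6.01 ± 0.27 with mocetinostat and 4.62 ± 0.34 with DMSO (SD, n = 3 each). ID2 was 2.03 higher with the combination and 1.38 higher with mocetinostat than with DMSO (4.08-fold and 2.61-fold), against 0.50 with JQ1 (SE 0.22 each). The combination exceeded JQ1 by 1.53 and mocetinostat by 0.64, and JQ1 was 0.89 below mocetinostat (SE 0.22 each).

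ID4 rose with the combination, and its replicates were wide relative to its changes. It was at 4.82, 5.29 and 4.91 with the combination, 3.883, 3.757 and 3.995 with JQ1, 4.78, 3.98 and 4.27 with mocetinostat and 3.26, 3.88 and 3.62 with DMSO. The combination arrays were above all others, by only 0.04 in the case of the highest mocetinostat array, while JQ1 overlapped with both mocetinostat and DMSO. ID4 averaged 5.01 ± 0.25 with the combination, 3.88 ± 0.12 with JQ1, 4.34 ± 0.40 with mocetinostat and 3.59 ± 0.31 with DMSO (SD, n = 3 each). Compared with DMSO, the log2 differences were 1.42 with the combination (2.67-fold), 0.29 with JQ1 and 0.76 with mocetinostat (SE 0.21 each). With DMSO, ID4 lay between the 41.6th and 55.8th percentiles of the array, close to the array medians. The combination was 1.13 above JQ1 and 0.66 above mocetinostat, and JQ1 was 0.47 below mocetinostat (SE 0.21 each).

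**Figure D1:**
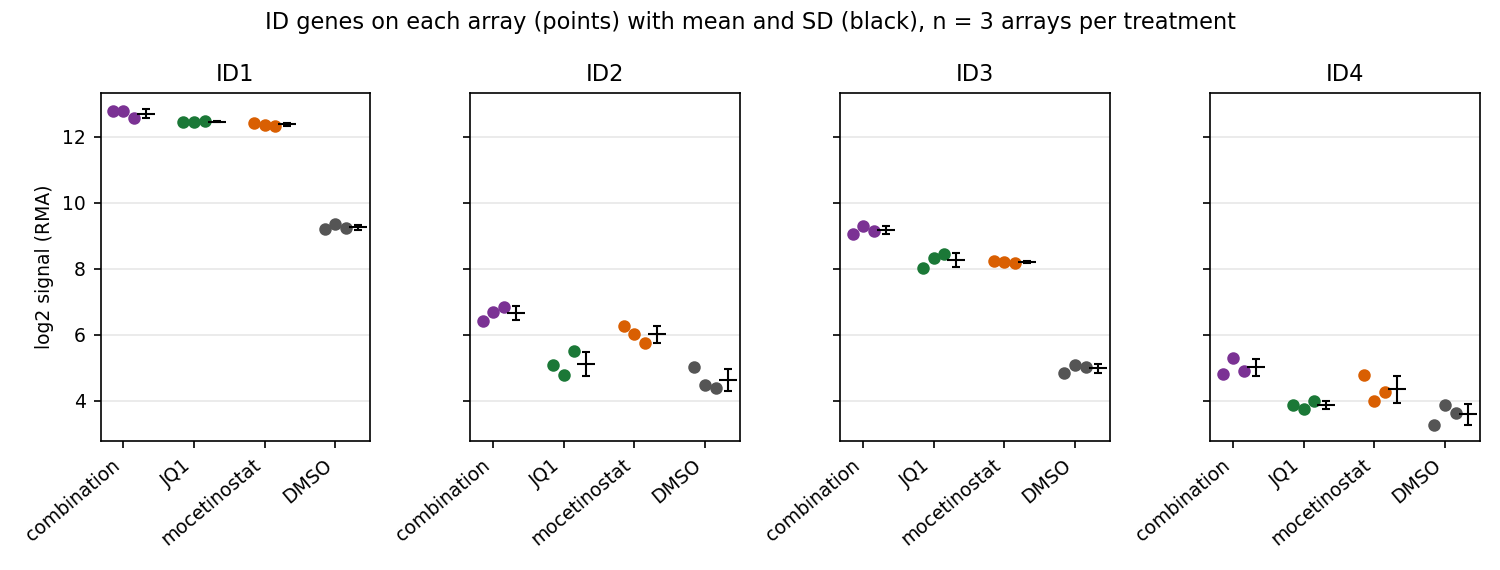
Log2 RMA signal (vertical axis) of the ID genes on each of the 12 arrays (points) for the combination, JQ1, mocetinostat and DMSO, with the mean and SD of 3 arrays in black. ID1 and ID3 lie at like levels with either compound, at 12.45 and 12.37 for ID1, while ID2 and ID4 lie lower with JQ1 than with mocetinostat.

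Counted by the filter, all 4 ID genes were higher with the combination than with DMSO, 2 with JQ1 (ID1 and ID3) and 3 with mocetinostat (all but ID4). Among the 22392 genes measured, 7.06% were higher with the combination, 2.14% with JQ1 and 7.08% with mocetinostat. Since the members were chosen with these differences in view, nothing is read from the counts. Between treatments, 2 members were counted as higher with the combination than with JQ1 (ID2 and ID4, against 4.46% of all genes), 0 as higher with the combination than with mocetinostat (1.22%) and 0 as higher or lower with JQ1 than with mocetinostat (2.89% and 6.32%). The ranges of the 3 arrays did not overlap for 4 members between the combination and each of the other treatments. The same held for 4 between mocetinostat and DMSO, 2 between JQ1 and DMSO and 2 between JQ1 and mocetinostat. No share of all genes is given for such gaps, so nothing is read from their number either. No member was counted as lower with the combination than with DMSO, JQ1 or mocetinostat, where 8.11%, 3.23% and 2.68% of all genes were, or lower with JQ1 or mocetinostat than with DMSO, where 4.51% and 5.5% were. The comparisons with DMSO share the same 3 DMSO arrays.

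The pattern of ID1 with both compounds was set against the sum of the single changes. On the log2 scale the combination changed ID1 by 3.44 where the sum of the changes with JQ1 and mocetinostat was 6.30, a departure of −2.86 (SE 0.13), so the combination reached 54.6% of the sum. For ID3 the departure was −2.33 (SE 0.17) and the combination reached 64.3%. Departures of ID2 (0.15, SE 0.31) and ID4 (0.37, SE 0.30) were near or within their errors, and the combination came to 108% and 136% of the sums. By the filter 2 members, ID1 and ID3, fell short of the sum and 0 exceeded it, beside 2.91% and 3.39% of all genes. Since the family was chosen by these same values, nothing is read from this count.

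A sum of log2 changes is a product of folds, so the gains were also taken on the linear signal. ID1 gained 6066 units with the combination (SE 335), against 4989 with JQ1 and 4683 with mocetinostat, whose sum is 9672 (SE 92.5). The difference was −3606 units (SE 346), and the combination reached 62.7% of the sum. ID3 gained 544 units (SE 28.0) with the combination, 279 with JQ1 and 263 with mocetinostat, so that the sum of 542 (SE 26.6) was met, at 100% with a difference of 1.6 (SE 38.4). On this scale ID1 and ID3 came apart, although both were short of the sum in log2 units. ID2 gained 76.0 units (SE 9.05) against a sum of 50.3 (SE 11.2), and ID4 20.3 (SE 3.71) against 11.2 (SE 4.60), 151% and 181% of the sums. Leaving out each array in turn moved the linear share of ID1 between 60.7% and 66.2%, that of ID3 between 95.4% and 104%, that of ID2 between 135% and 171% and that of ID4 between 148% and 258%, the highest without mocetinostat replicate 1. With arrays scaled to ribosomal protein genes the shares were 56.5% for ID1 and 91.2% for ID3.

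**Figure D2:**
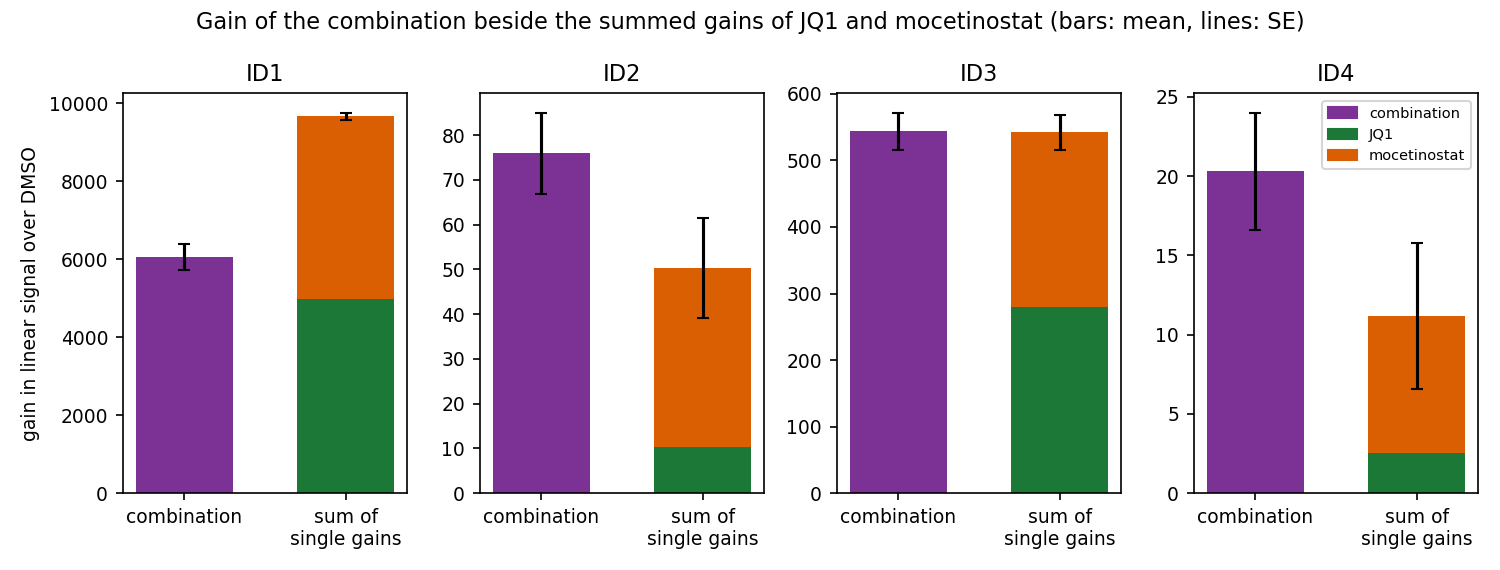
Gain in linear signal over DMSO (vertical axis, a scale of its own for each gene) with the combination, beside the stacked gains of JQ1 and mocetinostat, with SE as lines. The ID1 gain of 6066 falls short of the sum of 9672, while the ID3 gain of 544 meets its sum of 542.

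To place ID1 and ID3 among other strongly induced transcripts, all genes at least 4-fold up with each compound alone were taken, which gave 27 genes with ID1 and ID3 among them. The step of the combination over the higher of the JQ1 and mocetinostat means had a median of 0.47 and ran between −1.07 for IL18, a cytokine of the interleukin-1 family, and 1.55 for AQP3, a water and glycerol channel. ID1, with a step of 0.25, was 10th from the lowest, and ID3, with 0.90, was 23rd. None of the 27 had a higher mean than ID1 with the combination or with DMSO, so ID1 is ranked here among dimmer probe sets. A step below 0 was found for 6 of these genes and one of 2-fold or more for 4 (FGF18, H2BC18, EGR1 and AQP3). All 27 fell short of the sum on the log2 scale, by a median of 2.31. A step smaller than 2-fold was common in this group. The genes were picked by the same single changes that form the sum and the step, which favors shortfalls and small steps.

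**Figure D3:**
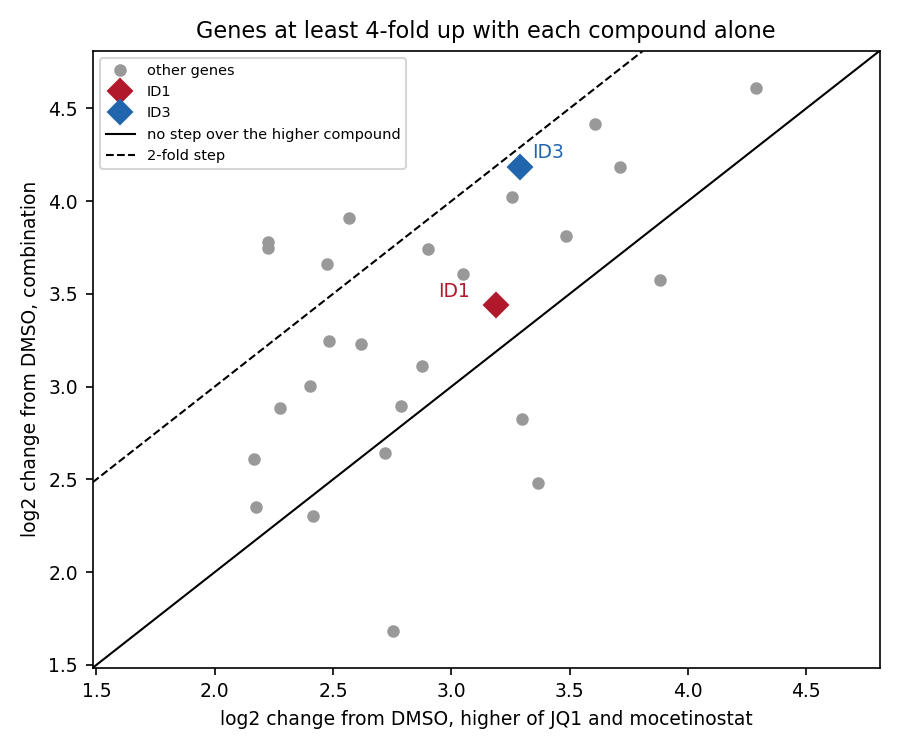
Log2 change from DMSO with the combination (vertical axis) against the higher of the changes with JQ1 and mocetinostat (horizontal axis) for 27 genes at least 4-fold up with each compound. ID1 lies 0.25 above the line of no step and ID3 0.90 above it, close to the dashed line of a 2-fold step.

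ID1 lay near the upper end of the array with every compound, so the room above it was examined. Its signal was at the 94.2nd to 94.7th percentile with DMSO and reached the 99.8th with the combination. With the combination 100 probe sets had a higher mean than ID1, up to 13.77. Within 0.5 log2 units of ID1 with JQ1 and with mocetinostat there were 221 probe sets, of which 0 were 2-fold higher with the combination than with each compound. The largest step among them was 0.53, 6 had a larger step than ID1 and the median was −0.05. Whether the signal of the array is compressed at this height was not tested.

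Across the 12 arrays ID1 and ID3 correlated with r = 0.99, and ID2 and ID4 with r = 0.87, while the other pairs of members had r between 0.66 and 0.79. These values describe 4 treatment levels with 3 arrays each. After the treatment means were removed, the order of the pairs was another one, with r of 0.54 for ID3 and ID4, 0.53 for ID1 and ID4, 0.36 for ID1 and ID3, 0.11 for ID2 and ID4, 0.03 for ID2 and ID3 and −0.22 for ID1 and ID2.

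The genes whose signals followed each member most closely over the 12 arrays were taken by Pearson correlation among 5049 genes that spanned at least 2-fold between treatments. For ID1 these were ZCCHC2 (r = 0.995), SRXN1, CITED2, EFR3B and CAPN5 (r between 0.991 and 0.993), where SRXN1 encodes sulfiredoxin, an enzyme of the oxidative stress response, and CITED2 a transcriptional co-regulator that binds CBP and p300. SRXN1, for example, was higher than with DMSO by 2.61 with the combination, 2.17 with JQ1 and 2.15 with mocetinostat. For ID3 they were SRXN1, the AP-1 subunit JUNB, ZCCHC2, GAREM1 and ZSWIM6 (r of at least 0.99). For ID2 they were MIR3689A, MIR3689D2, CNNM2, ADGRV1 and STXBP4 (r of at least 0.96), and for ID4 TSPEAR-AS2, PCLO, PYGM, LRFN3 and ZNF212 (r of at least 0.93). The gene nearest to ID1 in its 3 differences from DMSO was SMIM10L2B, at 3.61 with the combination, 3.05 with JQ1 and 3.00 with mocetinostat. EFR3B, GAREM1, H2BC5, a histone H2B gene, and ARHGAP20 came next. Order by Spearman correlation gave other genes, with 1 of the 5 shared for ID2 and 0 for ID1, ID3 and ID4.

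Genes that act with or on the ID proteins were gathered in 11 lists of 116 genes, of which 110 were measured, and were tested with limma over all 53617 probe sets. Of the 110, 23 rose and 10 fell with the combination, 8 rose and 8 fell with JQ1 and 19 rose and 5 fell with mocetinostat. A large part of the 23 calls was lost when the arrays were scaled to ribosomal protein genes, as given below. These were ATOH1, HES6, BHLHE40, BMP2, FSTL3, ACVR2A, SMAD6, SMAD9, SKIL and MSX2. The shares that follow are those of the values as deposited. The lists were chosen with earlier results of these data known, so their shares are set beside those of all genes as a description only. The shares that rose were 20.9% for the combination where 7.06% of all genes were, 7.27% for JQ1 (2.14%) and 17.3% for mocetinostat (7.08%). The shares that fell were 9.09% for the combination (8.11% of all genes), 7.27% for JQ1 (4.51%) and 4.55% for mocetinostat (5.5%). The median log2 difference over the 110 genes was 0.04, −0.04 and 0.09 for the combination, JQ1 and mocetinostat, against 0.00, 0.02 and −0.01 over all genes. The combination stood above JQ1 for 17 of them (15.5%, against 4.46% of all genes) and below it for 2 (1.82%, against 3.23%). It stood above mocetinostat for 4 (3.64%, against 1.22%) and below it for 4 (3.64%, against 2.68%), and JQ1 stood above mocetinostat for 1 (0.909%, against 2.89%) and below it for 16 (14.5%, against 6.32%).

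None of the E proteins, the direct partners that ID proteins hold back, rose. TCF12 was at 7.36, 7.45 and 7.37 with the combination, 7.96, 7.88 and 8.18 with JQ1, 7.61, 7.55 and 7.56 with mocetinostat and 8.53, 8.41 and 8.53 with DMSO. All treated arrays lay below all DMSO arrays. The difference from DMSO passed the filter for the combination (−1.09, SE 0.09, adjusted p = 3.1e-06) and was −0.48 with JQ1 and −0.91 with mocetinostat. TCF3 differed by −0.61, −0.62 and −0.28 (combination, JQ1, mocetinostat), less than 2-fold. TCF4, near the middle of the array, differed by 0.18, −0.05 and 0.54 and passed in no comparison.

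Among 35 measured class II basic helix-loop-helix factors, which pair with E proteins, 2 rose with the combination, 1 with JQ1 and 2 with mocetinostat, and none fell. These are 5.71%, 2.86% and 5.71%, near the 7.06%, 2.14% and 7.08% of all genes that rose. Only 4 of them exceeded a signal of 5 with any treatment. HAND1, a factor of heart and trophoblast development, was at 7.77, 7.94 and 7.92 with the combination, 4.63, 4.74 and 4.83 with JQ1, 8.14, 8.16 and 8.22 with mocetinostat and 4.20, 4.57 and 3.85 with DMSO. It rose by 3.67 with the combination and 3.97 with mocetinostat (SE 0.15 each, adjusted p = 7.7e-09 and 5.4e-09), while JQ1 gave 0.53 and did not pass.

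HES, HEY and BHLHE genes encode helix-loop-helix repressors, many of them targets of Notch, and 7 of 12 rose with the combination, 1 with JQ1 and 3 with mocetinostat. These are 58.3%, 8.33% and 25%, against 7.06%, 2.14% and 7.08% of all genes. No member fell, and the list medians were 1.16, 0.15 and 0.81. The combination calls of HES6 and BHLHE40 were lost with arrays scaled to ribosomal protein genes (0.89 and 0.79). HES1 was at 8.85, 8.87 and 8.78 with the combination, 7.999, 8.138 and 7.872 with JQ1, 8.22, 8.21 and 8.23 with mocetinostat and 7.21, 7.37 and 7.20 with DMSO, an order with no overlap between treatments. It rose by 1.58 with the combination (adjusted p = 1.3e-07) and was 0.74 and 0.97 higher with JQ1 and mocetinostat, under 2-fold. HES7, an oscillating repressor of the segmentation clock, rose only with the combination by this filter (2.34, adjusted p = 1.8e-07), exceeding the sum of the single changes by 1.53 (adjusted p = 5.2e-04). HEY2 and HEYL rose with the combination (2.33 and 1.87) and with mocetinostat (2.62 and 2.20). BHLHE40, a repressor of the circadian clock, was the member that rose with all 3 treatments, by 1.07, 1.304 and 1.17 (combination, JQ1, mocetinostat), with a departure from the sum of −1.40 (adjusted p = 1.1e-05).

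Of 13 measured BMP ligands, 2 rose and 2 fell with the combination, 0 rose and 2 fell with JQ1 and 2 rose and 1 fell with mocetinostat. The shares that rose were 15.4%, 0% and 15.4% (combination, JQ1, mocetinostat), against 7.06%, 2.14% and 7.08% of all genes. Those that fell were 15.4%, 15.4% and 7.69%, against 8.11%, 4.51% and 5.5%. BMP4, a classic ID inducer, had a strong signal throughout, at 10.55 ± 0.03 with the combination, 11.46 ± 0.04 with JQ1, 11.18 ± 0.07 with mocetinostat and 11.28 ± 0.08 with DMSO (SD, n = 3 each), and did not pass the filter. It was lower with the combination by 0.73, under 2-fold. BMP6 rose by 1.40 with the combination and 1.95 with mocetinostat (adjusted p = 1.3e-06 and 1.2e-07), against 0.03 with JQ1. GDF5, a ligand of joint development, fell by 2.00, 1.59 and 1.68 with the combination, JQ1 and mocetinostat. BMP2 passed with the combination (1.04, adjusted p = 0.0044) and with mocetinostat (1.34), and the call for the combination was lost without each DMSO array, combination replicates 2 and 3, JQ1 replicates 1 and 2 or mocetinostat replicate 2, at differences between 0.89 and 1.12.

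The secreted antagonists that keep BMPs from their receptors included NOG, the largest decrease from DMSO among the 110 genes. NOG encodes noggin, and it was at 5.59, 5.19 and 5.67 with the combination, 7.42, 7.39 and 7.45 with JQ1, 6.54, 6.60 and 6.63 with mocetinostat and 8.79, 8.98 and 9.03 with DMSO. The 4 treatments did not overlap. NOG fell by 3.45 with the combination, 1.51 with JQ1 and 2.34 with mocetinostat (SE 0.12 each, adjusted p = 2.4e-09, 5.8e-06 and 7.6e-08), and its departure of 0.40 from the sum did not pass. FST, which encodes follistatin, a binder of activins and some BMPs, fell with each treatment, with differences of −1.81 (combination), −1.94 (JQ1) and −1.11 (mocetinostat). SOST, the gene of sclerostin, fell by 1.52 with the combination and 1.49 with JQ1 and rose by 1.89 with mocetinostat. Of 12 measured antagonists, 1 rose and 3 fell with the combination, 1 and 3 with JQ1 and 2 and 2 with mocetinostat. The shares that rose were 8.33%, 8.33% and 16.7% (combination, JQ1, mocetinostat), against 7.06%, 2.14% and 7.08% of all genes. Those that fell were 25%, 25% and 16.7%, against 8.11%, 4.51% and 5.5%. FSTL3 rose to between 8.94 and 9.10 with the combination and 8.86 and 8.93 with JQ1, from 7.74 to 7.84 with DMSO. Both calls were lost with arrays scaled to ribosomal protein genes (0.93 and 0.96). CHRDL1 was at 5.20 to 5.57 with mocetinostat, against 3.71 to 3.82 with DMSO.

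Among the 10 measured receptors and co-receptors, 2 rose and 1 fell with the combination, 1 rose and 2 fell with JQ1 and 2 rose and 1 fell with mocetinostat. The shares that rose were 20%, 10% and 20% (combination, JQ1, mocetinostat), against 7.06%, 2.14% and 7.08% of all genes. Those that fell were 10%, 20% and 10%, against 8.11%, 4.51% and 5.5%. BAMBI, a pseudoreceptor that blocks signaling and is itself a BMP target, was at 9.74 ± 0.03 with the combination, 8.63 ± 0.07 with JQ1, 9.88 ± 0.06 with mocetinostat and 7.13 ± 0.14 with DMSO (SD, n = 3 each). It rose by 2.61, 1.499 and 2.75 with the combination, JQ1 and mocetinostat (adjusted p = 1.9e-09, 5.9e-07 and 1.7e-09) and fell short of the sum by 1.64 (adjusted p = 1.2e-05). The type II receptor BMPR2 and the type I receptor ACVR1 passed in no comparison with DMSO. ACVR2A, a type II receptor of activins and BMPs, rose with the combination (1.04) and mocetinostat (1.31). The co-receptor ENG (endoglin) fell by 1.84, 1.53 and 1.72 with the combination, JQ1 and mocetinostat.

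Among the SMADs that carry the BMP signal, SMAD9 rose with the combination (1.09, adjusted p = 5.9e-04), against 0.15 with JQ1 and 0.42 with mocetinostat. SMAD1, SMAD5 and SMAD4 passed the filter with no treatment and differed from DMSO by between −0.35 and 0.42 over the 3 treatments. SMAD1 lay between 3.15 and 3.75 on all arrays, around the array medians of 3.58 to 3.66, so a change in it may not show. SMAD5 and SMAD4 had signals of at least 7.82. The inhibitory SMAD7 was at 7.55, 7.83 and 8.23 with the combination, 7.77, 7.51 and 7.87 with JQ1, 8.16, 8.22 and 8.18 with mocetinostat and 6.09, 6.25 and 6.22 with DMSO. The treated arrays all lay above the DMSO arrays, and the combination overlapped with both JQ1 and mocetinostat. SMAD7 rose by 1.68, 1.53 and 2.00 (combination, JQ1, mocetinostat; SE 0.15 each, adjusted p = 5.2e-06, 2.9e-05 and 1.7e-06) and fell short of the sum by 1.85 (adjusted p = 2.3e-04). SMAD6, the other inhibitory SMAD, rose by 1.13 with the combination and 2.03 with mocetinostat and was 0.34 higher with JQ1, which did not pass, and the corepressor SKIL rose by 1.08, 1.16 and 1.69 with the combination, JQ1 and mocetinostat. SMAD3, which carries TGF-β signals, fell by 1.59 with the combination alone by this filter (adjusted p = 4.3e-07). Of 12 SMADs and SMAD corepressors, 4 rose and 1 fell with the combination, 2 and 0 with JQ1 and 3 and 0 with mocetinostat. The shares that rose were 33.3%, 16.7% and 25% (combination, JQ1, mocetinostat), against 7.06%, 2.14% and 7.08% of all genes. Those that fell were 8.33%, 0% and 0%, against 8.11%, 4.51% and 5.5%. Without DMSO replicate 3 the combination calls of SMAD6, SKIL and ACVR2A were lost (0.99 each). With arrays scaled to ribosomal protein genes the combination calls of SMAD6, SMAD9, SKIL, ACVR2A and BHLHE40 were lost (between 0.76 and 0.85). That scaling also ended the combination calls of HES6 (0.89), MSX2 (0.91), FSTL3 (0.93) and BMP2 (0.76). ATOH1 kept a difference of 1.11 but lost its call by the unadjusted limma p of 0.0014.

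EGR1 and ATF3, transcription factors reported to act on the ID1 promoter, rose with each treatment. EGR1 was at 10.53, 10.76 and 10.70 with the combination, 9.19, 9.21 and 9.02 with JQ1, 9.11, 9.10 and 9.07 with mocetinostat and 6.84, 6.95 and 6.96 with DMSO. As with ID3, JQ1 and mocetinostat overlapped and the combination lay above both. EGR1 rose by 3.75, 2.22 and 2.18 (combination, JQ1, mocetinostat; SE 0.09 each, adjusted p = 1.7e-10, 3.4e-08 and 1.2e-08), and the combination exceeded JQ1 by 1.52 and mocetinostat by 1.57. Its departure from the sum was −0.65 and did not pass the filter. ATF3 rose by 2.49, 1.16 and 1.84. Its JQ1 call was lost without DMSO replicate 1 (0.96) and with the number in the sample title as a block (0.93). Whether either factor raises or lowers ID1 in these cells was not tested.

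Of 5 genes that govern the stability of ID proteins, none rose past the filter. WDR48 was higher on every treated array (8.12 to 8.39) than on the DMSO arrays (7.78 to 7.82), by less than 2-fold. USP1, the deubiquitinase that protects ID1, ID2 and ID3 from degradation, was at 8.29, 8.26 and 8.26 with the combination, 8.34, 8.23 and 8.19 with JQ1, 8.08, 8.05 and 8.16 with mocetinostat and 9.81, 9.82 and 9.81 with DMSO. The treated arrays lay far below the DMSO arrays and close to each other. USP1 fell by 1.54, 1.56 and 1.71 (combination, JQ1, mocetinostat; SE 0.08 each, adjusted p = 4.0e-08, 1.4e-07 and 2.4e-08), and the combination was 1.73 above the level of the summed changes (adjusted p = 3.3e-06). COPS5, a subunit of the COP9 signalosome, fell by 1.01 with the combination, a call lost without DMSO replicate 3 (−0.96) or combination replicate 1 (−0.95). ID protein was not measured on these arrays.

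Genes that ID or E proteins are known to control moved in several ways. CDKN1A, the p21 inhibitor of cyclin-dependent kinases and an E-protein target, rose by 1.39 with the combination and 1.20 with mocetinostat (adjusted p = 3.0e-07 and 1.4e-06) and was 0.73 higher with JQ1, under 2-fold. CDKN1C, the p57 inhibitor, was at 7.33, 7.47 and 7.37 with the combination, 4.84, 4.82 and 4.86 with JQ1, 5.54, 5.50 and 5.63 with mocetinostat and 5.10, 5.56 and 5.25 with DMSO, so that the combination lay above all others. It rose by 2.08 with the combination (adjusted p = 6.9e-08) and exceeded the sum by 2.30 (adjusted p = 5.2e-06). CDH1, the gene of E-cadherin, rose by 2.78 with mocetinostat (adjusted p = 9.5e-07) and by no more than 0.64 with the combination or JQ1, neither past the filter.

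**Figure D4:**
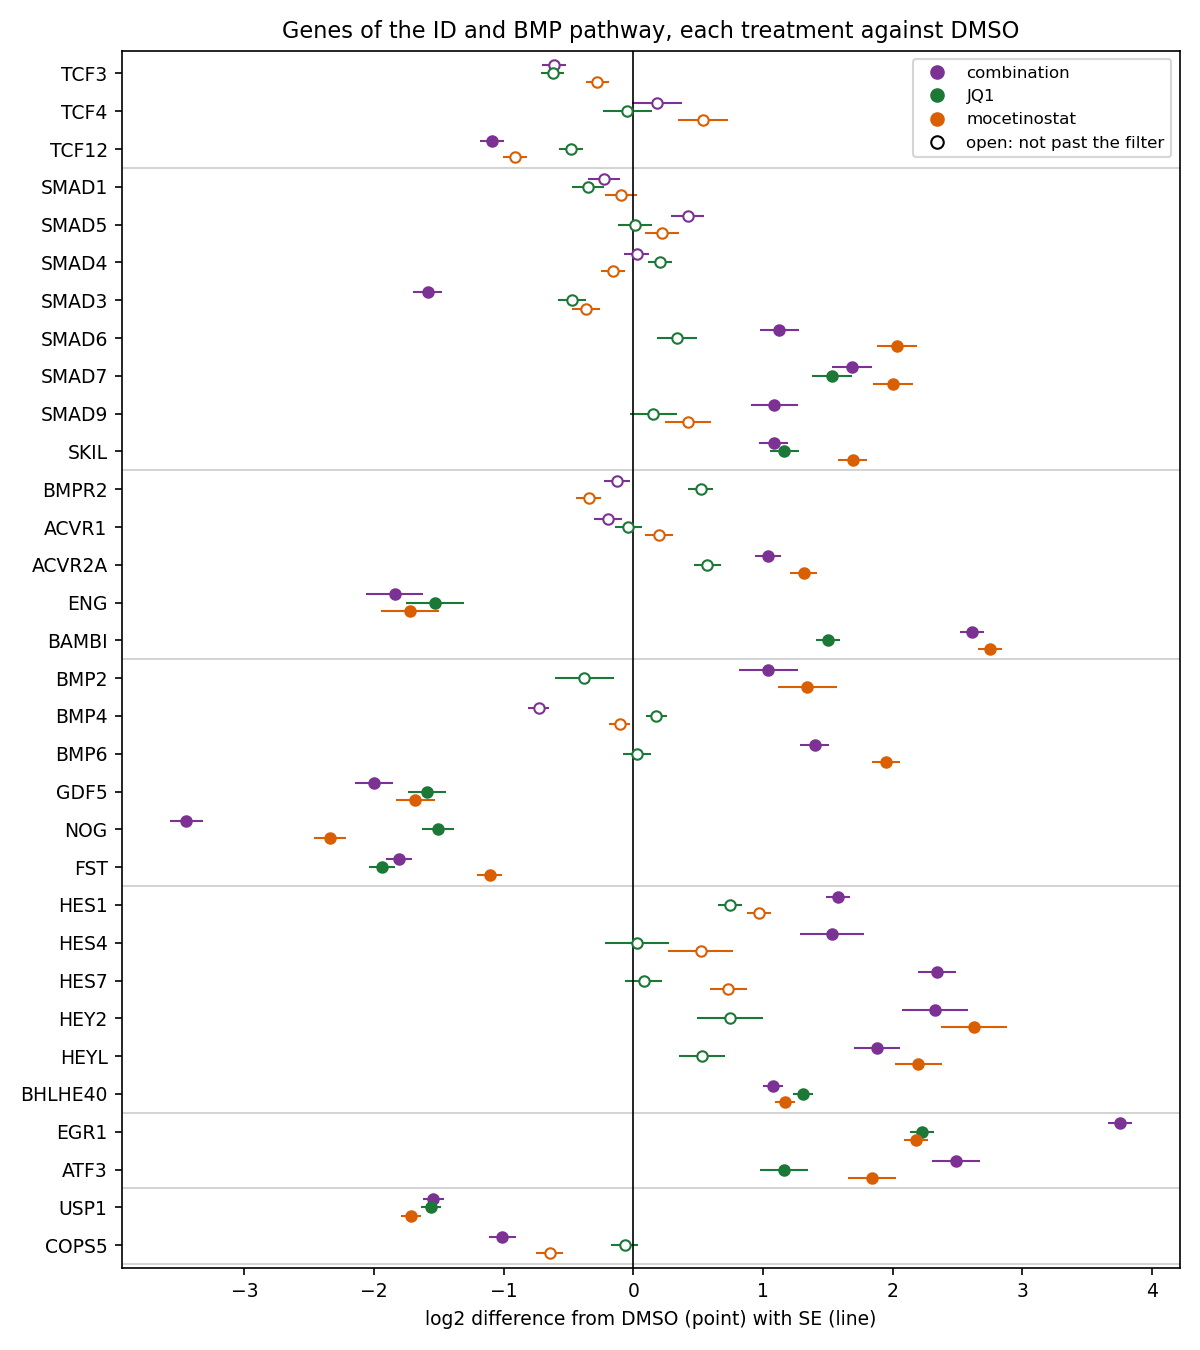
Log2 difference from DMSO (horizontal axis) with SE for genes of the ID and BMP pathway with the combination, JQ1 and mocetinostat, filled where the filter was passed, in groups (top to bottom) of E proteins, SMADs and a corepressor, receptors, ligands and antagonists, HES and HEY repressors, ID1 regulators and genes of ID stability. EGR1 reaches 3.75 with the combination, NOG falls by 3.45 and USP1 falls by 1.54 to 1.71 with every treatment.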

How the data were processed

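RNA of 12 cultures was measured, 3 per treatment. The log2 values, made by RMA, are those the authors deposited, for 53617 probe sets. The RMA version is not given in the sources used here. RMA equalizes the arrays, which hides any shift common to most transcripts. A probe table names 23866 probe sets with exactly 1 symbol, 1852 with several and 27899 with none. For a gene with several probe sets, the brightest on average was taken. Samples were grouped by source name, which matches the title and for most samples not the free-text description. All arrays entered 1 limma fit (version 3.58.1, R 4.3.3) with a mean per treatment (8 residual degrees of freedom, prior 3.1), tested on simulated data, with p values adjusted over all probe sets. The departure is the combination minus JQ1 minus mocetinostat plus DMSO. Up to 4 genes that passed, by size of change, could be named per list, with members of central role. The members, lists and rules were chosen with earlier results of these data known. Signals of different probe sets are not amounts on a common scale, and the number of arrays limits the precision. Alternatives were other scalings, a filter on dim probe sets, other tests, replicate blocks and leaving out each array.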

Additional observations from a re-analysis of the deposited data

Results flagged for a closer look

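For 13 genes of the lists the effect of JQ1 in the presence of mocetinostat differed from its effect in its absence, by the limma test of that difference over all probe sets at the filter used throughout (p under 0.001 and 2-fold), where 3.39% of all genes were higher and 2.91% lower. The difference was negative for BHLHE40 (−1.40, adjusted p = 1.05e-05), SOST (−1.92, adjusted p = 9.18e-04), BAMBI (−1.64, adjusted p = 1.16e-05), SMAD6 (−1.24, adjusted p = 0.00305), SMAD7 (−1.85, adjusted p = 2.34e-04), SKIL (−1.77, adjusted p = 3.14e-05) and CDH1 (−2.55, adjusted p = 1.52e-04). It was positive for HES7 (1.53, adjusted p = 5.15e-04), GDF5 (1.27, adjusted p = 0.00206), FST (1.24, adjusted p = 1.76e-04), ENG (1.41, adjusted p = 0.0135), USP1 (1.73, adjusted p = 3.26e-06) and CDKN1C (2.30, adjusted p = 5.18e-06). On the treated arrays GDF5 lay between 3.91 and 4.55 and ENG between 3.76 and 4.63, near the array medians of 3.58 to 3.66. Whether a further fall of these genes could have been seen at this level was not tested. The ENG call did not hold without 10 of the 12 arrays taken singly, where the difference lay between 1.17 and 1.52. With the number in the sample title as a block, the calls of GDF5 (1.13), SMAD6 (−0.997) and ENG (1.19) were lost.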

How the results depend on the processing

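No ID difference changed sign against DMSO under any setting run. With the arrays scaled to ribosomal protein genes the changes of ID1 were 3.16 with the combination, 3.06 with JQ1 and 2.95 with mocetinostat, and those of ID3 3.905 with the combination and 3.065 with mocetinostat, smaller by more than the spread between replicates. No other difference of an ID gene from DMSO, departure of an ID gene or count of probe sets that passed moved by more than its replicate spread or 1.5 times. Among the remaining values 50 moved by more. Of these, 35 were shares of the summed changes, 8 the counts of ID genes given next, 3 the steps of the combination over a single compound under the ribosomal scaling (ID1 0.10 and 0.21, ID3 0.75) and 4 the lists of most similar genes. The count of ID genes higher with the combination than with JQ1 was 1 in place of 2 under that scaling, in the unmoderated test, with the title number as a block and without combination replicate 2, JQ1 replicate 1 or JQ1 replicate 2. It became 1 in place of 0 for the combination against mocetinostat without combination replicate 1, and for JQ1 against mocetinostat without JQ1 replicate 3. Shares of the summed gains on the linear signal were computed after the data had been seen. The replicate numbers do not pair the samples: arrays of the same number correlated between −0.09 and 0.04 after removal of the treatment means, and with the replicate number as a block 5238 probe sets passed with the combination, against 5290 without it. Each ID gene has 1 probe set, so a mean over probe sets could not differ, and each treatment rests on 3 arrays.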
